A study of Mus musculus with 11 samples.

Results

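This account follows 10 genes that encode the cyclins and cyclin-dependent kinases (CDKs) of the cleavage divisions in single mouse 8-cell embryos. They were *Ccna2*, *Ccnb1*, *Ccnb2*, *Ccnd1*, *Ccnd2*, *Ccnd3*, *Ccne1*, *Ccne2*, *Cdk1* and *Cdk2*, taken by matching the Ensembl gene identifiers of the quantification tables to these symbols, and all 10 were found among 54146 genes. Those whose promoters are not printed below lie at chr3:36564865-36572150 (*Ccna2*), chr7:144929931-144939925 (*Ccnd1*), chr6:127125162-127152193 (*Ccnd2*), chr17:47505051-47599691 (*Ccnd3*) and chr4:11191351-11204779 (*Ccne2*), as GENCODE M21 places the whole genes in GRCm38. The embryos were C57BL/6, were collected from the oviduct at embryonic day 2.5 after natural mating of *Prdm10* Δ/+ parents, and each was made into 1 Smart-seq2 library, which reads full-length cDNA from polyadenylated RNA. The 5 mutants were *Prdm10* Δ/Δ, that is, homozygous for an allele lacking exon 5 of the zinc finger factor gene *Prdm10*. The 6 controls were pooled *Prdm10* WT/HET embryos, so that some of them may carry 1 deleted copy, and every embryo, mutants included, came from a heterozygous mother. Batch 1 held 3 controls and 2 mutants and was pre-amplified with 16 PCR cycles, and batch 2 held 3 controls and 3 mutants and had 13 cycles. Batch and cycle number cannot be told apart.

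Cyclins have no catalytic activity of their own. Each binds a CDK and switches it on, and the cell cycle advances because different cyclins are made and destroyed in turn. D-type cyclins pair with CDK4 and CDK6 and couple growth signals to cell cycle entry, E-type cyclins pair with CDK2 at the start of DNA replication, cyclin A2 serves CDK2 and CDK1 during replication and after it, and B-type cyclins with CDK1 drive mitosis. Cleavage divisions partition the large egg without growth between divisions. At the 8-cell stage the embryo makes its own transcripts, most of the maternal ones having been cleared.

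The promoters of 6 of the 10 members were in the RefSeq table used here, and 5 are printed because they belong to the B cyclins, the paired CDKs and the leading E cyclin, whose levels are compared further on. Each run is the 250 bases before the RefSeq start site in GRCm38.p6, on the minus strand, 5′ to 3′. The positions are chr13:100786487-100786736 for *Ccnb1*, chr9:70421555-70421804 for *Ccnb2*, chr10:69352913-69353162 for *Cdk1*, chr10:128705052-128705301 for *Cdk2* and chr7:38107491-38107740 for *Ccne1*. Capitals mark a CCAAT box (CCAAT, which reads ATTGG when it lies on the other strand), a cell cycle homology region or CHR (TTTGAA or TTCGAA) or an E2F motif (TTTCGCGC, TTTGGCGC, TTTCCCGC or TTTGCCGC), all searched on both strands.
Ccnb1: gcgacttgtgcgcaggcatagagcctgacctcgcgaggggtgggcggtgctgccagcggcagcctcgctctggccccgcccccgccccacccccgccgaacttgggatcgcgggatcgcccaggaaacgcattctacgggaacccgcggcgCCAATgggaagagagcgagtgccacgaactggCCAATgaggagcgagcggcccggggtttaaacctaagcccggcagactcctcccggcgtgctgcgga
Ccnb2: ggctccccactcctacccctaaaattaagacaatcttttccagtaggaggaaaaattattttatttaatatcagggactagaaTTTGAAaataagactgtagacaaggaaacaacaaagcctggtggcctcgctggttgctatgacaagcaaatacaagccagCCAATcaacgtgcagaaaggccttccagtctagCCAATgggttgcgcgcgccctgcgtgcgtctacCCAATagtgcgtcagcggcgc
Cdk1: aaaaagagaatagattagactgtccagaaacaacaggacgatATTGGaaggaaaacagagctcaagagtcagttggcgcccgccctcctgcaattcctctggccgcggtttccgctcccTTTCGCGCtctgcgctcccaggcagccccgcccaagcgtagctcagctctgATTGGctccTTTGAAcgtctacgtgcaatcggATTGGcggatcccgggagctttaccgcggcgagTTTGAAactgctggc
Cdk2: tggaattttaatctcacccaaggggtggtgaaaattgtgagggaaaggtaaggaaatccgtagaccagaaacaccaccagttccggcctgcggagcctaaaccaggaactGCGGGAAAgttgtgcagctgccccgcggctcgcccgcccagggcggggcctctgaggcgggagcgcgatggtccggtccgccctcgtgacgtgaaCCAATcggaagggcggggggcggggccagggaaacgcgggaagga
Ccne1: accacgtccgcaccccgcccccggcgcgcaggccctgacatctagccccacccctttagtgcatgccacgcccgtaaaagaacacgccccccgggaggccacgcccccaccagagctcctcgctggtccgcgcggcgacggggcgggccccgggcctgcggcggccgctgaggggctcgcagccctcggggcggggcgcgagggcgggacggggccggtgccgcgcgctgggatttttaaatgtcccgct

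The *Ccnb1* run held 2 CCAAT boxes, starting 99 and 67 bases before the start site. The *Ccnb2* run held 3, at 87, 54 and 21 bases, and the *Cdk1* run held 3 on the opposite strand, at 208, 80 and 48 bases. A CCAAT box at 2 or more places was found in 10.1% of 32851 promoters of this length. *Ccnb2* also had 1 CHR and *Cdk1* had 2, beside an E2F motif 131 bases before the start. A CHR was present in 17.1% of all promoters and an E2F motif in 1.86%. *Cdk2* had 1 CCAAT box, a motif that 33.8% of promoters held, and 1 E2F motif, whereas *Ccne1* had none of these letters. For *Ccnd3*, 2 start sites were listed, with 1 CCAAT box before the downstream one and no match before the upstream one. A match of letters is not evidence of binding, and no match says only that these letters are not in this window.

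The libraries held 3534735 (control 2) to 8265840 (mutant 2) expected counts assigned to genes. *Prdm10* itself was at 11.1 to 24.8 TPM (transcript abundance scaled to a common total and corrected for gene length) in controls and 4.88 to 8.16 in mutants, without overlap. In normalised count the groups overlapped, at 124 to 381 in controls and 104 to 202 in mutants, and its effective length, by which TPM divides, was 2565 to 3357 bases in controls and 4348 to 5051 in mutants. Its fitted log2 fold change was -0.66 ± 0.26 (SE; DESeq2 adjusted p = 0.215), which did not pass the threshold of 0.05. The genotype had been assigned from *Prdm10* exon 5, and the gene-level count takes in the other exons. All 7 early embryo markers exceeded 1 TPM in at least 1 embryo, although *Cdx2* was at 0 in controls 1, 3 and 5, with sums of 968 to 1412 TPM in controls and 918 to 1863 in mutants, and 8 oocyte genes summed to 35.7 to 127 and 53.3 to 86.2 TPM. The 7 cumulus and granulosa markers summed to at most 3.08 TPM, and 5 oviduct markers to 0.29 to 26.1 TPM in controls and 0.45 to 32.4 in mutants. Each embryo is 1 pool of all its cells, so fewer cells in a given cell cycle phase and less RNA per cell cannot be told apart.

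The most abundant members were *Ccnb1*, *Cdk1* and *Ccna2*. *Ccnb1*, cyclin B1, had a mean of 1302 TPM (SD 321, n = 11 embryos) and ranked 132nd among all genes by mean TPM. Its level was 1028 TPM in the lowest, 1354 in the median and 1666 in the highest of 6 controls, and 1378, 848, 764, 1651 and 1466 TPM in mutants 1 to 5. Mutants 2 and 3 lay below all controls, and mutants 1, 4 and 5 lay among them. *Cdk1*, the mitotic kinase that cyclin B1 activates, averaged 866 TPM (SD 143, n = 11), with 739, 836 and 1180 TPM as the lowest, median and highest control and 818, 867, 659, 927 and 1009 TPM in mutants 1 to 5. Only mutant 3 was below the control range. *Ccna2*, cyclin A2, averaged 440 TPM (SD 108, n = 11) with controls at 307, 474 and 611 TPM (lowest, median, highest) and mutants at 437, 254, 333, 488 and 450 TPM. *Ccnb2*, cyclin B2, a B-type cyclin that cyclin B1 can stand in for in mice, was far lower at 82.0 TPM (SD 25.3, n = 11), its controls spanning 53.5 to 141 TPM around a median of 85.6 and its mutants at 100, 54.4, 60.5, 82.5 and 73.9 TPM.

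Of the genes for the start of replication, *Ccne1* was prominent and *Ccne2* was not. *Ccne1*, cyclin E1, averaged 224 TPM (SD 57.6, n = 11), with controls at 176, 212 and 305 TPM (lowest, median, highest) and mutants at 250, 167, 133, 240 and 320 TPM. Mutant 5 was the highest of all embryos and mutants 2 and 3 the lowest. *Ccne2*, cyclin E2, averaged 9.49 TPM (SD 4.54, n = 11), with controls at 3.98, 9.16 and 14.8 TPM and mutants at 18.3, 4.63, 4.15, 9.88 and 10.7 TPM. *Cdk2*, the kinase partner of cyclins E and A2, averaged 66.3 TPM (SD 20.1, n = 11). Its controls were at 27.9, 63.0 and 95.5 TPM and its mutants at 80.7, 62.2, 52.5, 68.7 and 87.2 TPM, all within the control range.

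The D cyclins were the least abundant class. *Ccnd3*, cyclin D3, carried most of it with a mean of 36.6 TPM (SD 21.1, n = 11). Controls were at 23.4, 37.1 and 72.0 TPM (lowest, median, highest) and mutants at 25.0, 10.5, 17.7, 30.9 and 69.5 TPM. *Ccnd1*, cyclin D1, averaged 2.55 TPM (SD 1.60, n = 11), between 0.81 and 5.54 TPM in controls and between 0.28 (mutant 1) and 3.45 TPM (mutant 4) in mutants. *Ccnd2*, cyclin D2, averaged 0.90 TPM (SD 1.15, n = 11). It was listed at 0 in control 6 and reached 1.45 TPM in control 4, and it was at 0.35, 4.01, 1.36, 1.23 and 0.43 TPM in the mutants. Its values rest on 0 to 43.1 expected counts, and embryos with 1 count or none cannot be ranked. The summed D cyclins made up 1.06% of the TPM of the 10 members in the median embryo, against 7.56% for the E cyclins, 31.2% for the CDKs and 59.8% for the A and B cyclins, the last ranging from 50.8% to 67.7%.

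**Figure D1:**
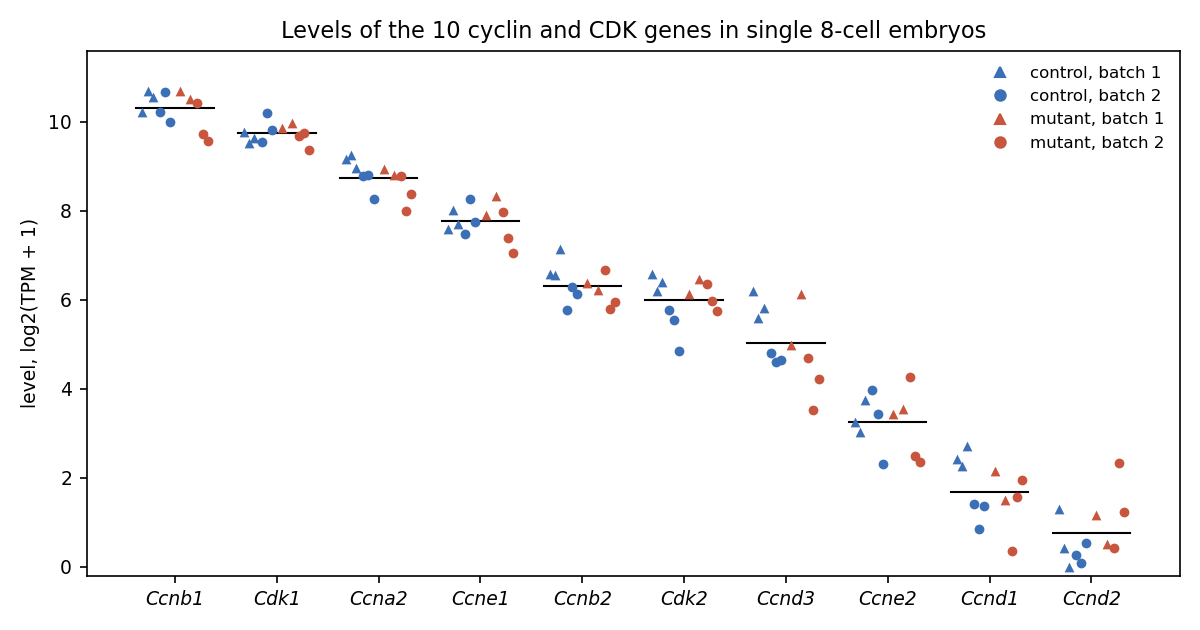
Level of each member in the 11 embryos as log2(TPM + 1), ordered by mean TPM; blue is control, red is mutant, triangles are batch 1, circles batch 2, and black lines mark the mean of all embryos. *Ccnb1* leads at a mean of 1302 TPM and *Ccnd2* is last at 0.90 TPM, and blue and red points overlap for every gene.

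Neighbours in this order were compared within embryos on log2(TPM + 1) by an exact two-sided sign-flip permutation test, with Benjamini-Hochberg adjustment over the 9 pairs. The pairs and their directions were set by the mean TPM of these same embryos, so that the test is no independent evidence of the order and shows only how each step compares with its spread. In 6 of the pairs the genes differed in the same direction in 11 of 11 embryos, namely *Cdk1* over *Ccna2*, *Ccna2* over *Ccne1*, *Ccne1* over *Ccnb2*, *Cdk2* over *Ccnd3*, *Ccnd3* over *Ccne2* and *Ccne2* over *Ccnd1* (exact adjusted p = 0.00146 each, from 0.000977, the smallest p that 11 embryos can give). *Ccnb1* exceeded *Cdk1* in 10 of 11 embryos by 0.56 ± 0.36 (log2, SD; exact adjusted p = 0.00251), *Cdk1* being higher in mutant 2 only. *Ccnd1* exceeded *Ccnd2* by 0.93 ± 0.90 in 9 of 11 embryos (exact adjusted p = 0.00879). The weakest step was *Ccnb2* over *Cdk2*, at 0.32 ± 0.46 and in 7 of 11 embryos (exact adjusted p = 0.0371). It did not pass in the controls alone (exact adjusted p = 0.125) or in 7 of the 11 fits that left out 1 embryo, with adjusted p up to 0.0742. These tests hold fewer embryos, so that a lost pass does not show a smaller step. The step was larger in controls, the difference of mutants from controls being -0.37 in batch 1 and -0.56 in batch 2. The order of *Ccnb2* and *Cdk2* thus depends on which embryos are taken. Within batches the mean step was 0.23 in batch 1 and 0.39 in batch 2.

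In each paralog group 1 member led. On mean TPM *Ccnb1* exceeded *Ccnb2* 15.9-fold, *Ccne1* exceeded *Ccne2* 23.6-fold, *Cdk1* exceeded *Cdk2* 13.1-fold, and *Ccnd3* exceeded *Ccnd1* 14.3-fold and *Ccnd2* 40.7-fold. The value for *Ccnd2* depends on the embryos taken. *Ccnd2* averaged 0.42 TPM in controls and 1.48 in mutants, with 4.01 in mutant 2, and *Ccnd3* averaged 41.5 and 30.7 TPM. The leading paralog was higher in 11 of 11 embryos for all 5 ratios, in both genotypes and both batches. Whether the balance between paralogs shifted in mutants was asked with an exact two-sided permutation test on the log2 ratio of TPM + 1, and 0 of 5 ratios passed. The *Ccnb1* to *Ccnb2* ratio was 3.98 ± 0.41 in controls (log2, SD, n = 6) and 3.99 ± 0.30 in mutants (n = 5; exact permutation adjusted p = 0.998). Within batches the difference of mutants from controls had opposite signs, at 0.57 in batch 1, where both mutants (4.31 and 4.29) were above the 3 controls, and -0.45 in batch 2. The *Ccne1* to *Ccne2* ratio was 4.51 ± 0.72 and 4.51 ± 0.48 (exact permutation adjusted p = 0.998). For *Cdk1* to *Cdk2* it was 3.86 ± 0.77 in controls and 3.60 ± 0.18 in mutants (exact permutation adjusted p = 0.998), and 2 controls of batch 2 had the highest values. Within batches the difference of mutants from controls in this ratio was 0.37 in batch 1 and -0.89 in batch 2.

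The D cyclin ratios were the most scattered in mutants. *Ccnd3* to *Ccnd1* was 3.44 ± 0.27 in controls and 3.22 in mutants, the highest of which was at 4.65 (n = 5; exact permutation adjusted p = 0.998), and the difference was 0.34 in batch 1 and -0.61 in batch 2. *Ccnd3* to *Ccnd2* was 4.84 ± 0.60 in controls and 3.58 ± 1.64 in mutants, a difference of -1.26 (exact permutation p = 0.0974, adjusted p = 0.487), with -0.56 in batch 1 and -1.57 in batch 2. Without mutant 5 this difference was -1.77 and passed the threshold (exact permutation adjusted p = 0.0476). These permutations ran over all embryos regardless of batch, and 3 of the remaining 4 mutants were in batch 2, where the ratio was lower (mean of 3.60 against 5.07 in batch 1). Within batches and without mutant 5 the differences were -1.46 in batch 1, which then rests on 1 mutant, and -1.57 in batch 2. With labels exchanged only within batches, a test added after the data were seen, the exact permutation p was 0.025 (adjusted p = 0.125), although the 80 splits allow no adjusted p below 0.0625 for 1 ratio alone. With all 11 embryos the same within-batch test gave an exact permutation adjusted p of 0.25. The lowest value of this ratio was in mutant 2, and mutants 3 and 4 (2.99 and 3.84) were also below the lowest control, at 4.12. In mutant 2 *Ccnd3* was at its lowest level, 10.5 TPM, and *Ccnd2* at its highest, 4.01 TPM. That *Ccnd2* value rests on 43.1 expected counts and an effective length of 1572 bases. The effective length of *Ccnd2*, by which its TPM divides, was 553 to 6256 bases, with means of 4259 in controls and 2416 in mutants. *Ccnd2* had 1 count in control 2 and mutant 5 and 0 in control 6. The part of these counts and lengths in the ratio was not tested.

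**Figure D2:**
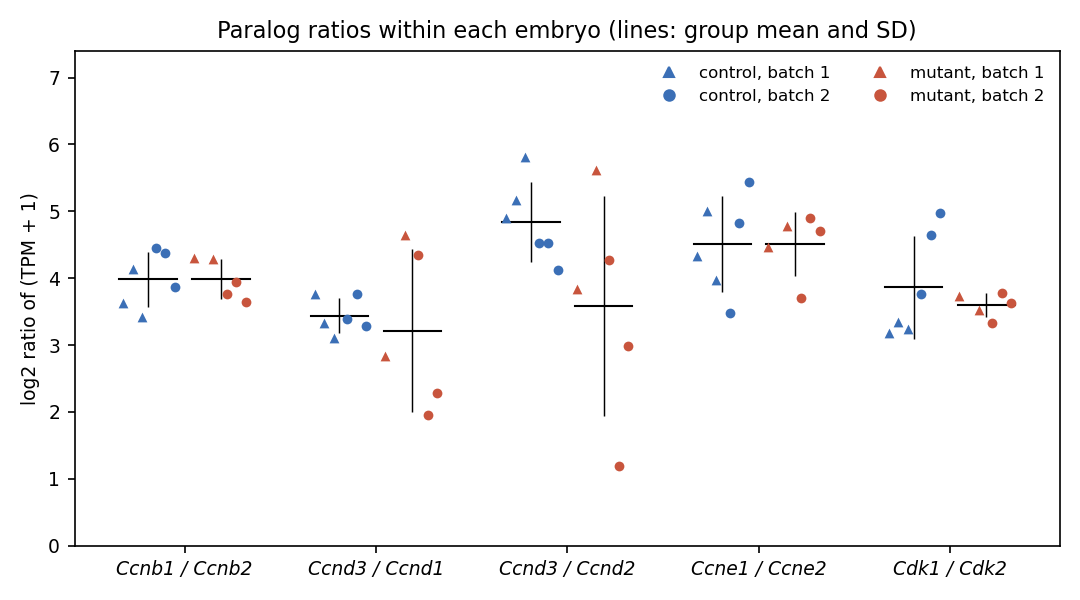
Log2 ratio of TPM + 1 between paralogs in each embryo, with group means (horizontal lines) and SD (vertical lines); blue is control, red is mutant, triangles are batch 1 and circles batch 2. All points lie above 0, and the mutants are widest for *Ccnd3* over *Ccnd2*, with an SD of 1.64.

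Mutants and controls were then compared with batch as a term of the model. *Ccnd2*, with a mean normalised count of 9.60, was under the minimum of 10, so that 9 of the 10 members were tested. Of the 9, 0 passed the test between mutants and controls (DESeq2 adjusted p under 0.05) in a comparison that called 1.45% of 10448 genes. At an unadjusted p under 0.05 there were 0 members, against 1248 of the 10448 genes. In edgeR's quasi-likelihood test 0 members passed the adjusted threshold, which 0.271% of 11798 genes passed, and 0 were at an unadjusted p under 0.05. Mutants and controls overlapped in normalised count for all 9 members, and they did not overlap for 0.919% of genes. The median log2 fold change of the 9 members was -0.17, with 3 above and 6 below 0, beside a median of -0.0012 over all genes tested.

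The precision differed between members. *Cdk1* had a log2 fold change of 0.00 ± 0.16 (SE; 95% interval -0.32 to 0.32; DESeq2 adjusted p = 0.999). *Ccna2* was at -0.24 ± 0.15 (-0.54 to 0.06; adjusted p = 0.572) and *Ccnb1* at -0.18 ± 0.19 (-0.56 to 0.20; adjusted p = 0.812), so that for these 3 genes the intervals hold no change of 1 log2 unit in either direction. The same was true of *Ccnb2* (-0.62 to 0.28), *Ccne1* (-0.46 to 0.41), *Ccnd3* (-0.88 to 0.16) and *Cdk2* (-0.12 to 0.74). The estimate was 0.31 ± 0.22 for *Cdk2* (adjusted p = 0.629) and -0.36 ± 0.27 for *Ccnd3* (adjusted p = 0.652), and with 1 embryo left out it ranged from 0.16 to 0.45 and from -0.63 to -0.21. For *Ccnd1* the interval of -1.23 to 0.58 reached past 1 unit on the lower side, and for *Ccne2* it was -0.86 to 0.87. The untested *Ccnd2* was estimated at 0.84 ± 0.90, and at 2.10 in a fit with an effective-length offset.

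The direction within a batch was not stable for several members. *Ccnb1* had a log2 fold change of 0.08 in batch 1 and -0.38 in batch 2, *Ccne1* of 0.35 and -0.33, *Cdk1* of 0.25 and -0.20, *Ccnb2* of -0.52 and 0.11, and *Cdk2* of -0.07 and 0.62. *Ccne2* (-0.01 and 0.03) and the untested *Ccnd2* (-0.18 and 1.51) also changed sign. *Ccna2*, *Ccnd1* and *Ccnd3* were negative in both batches (-0.23 and -0.24, -0.46 and -0.19, and -0.20 and -0.48). In the test of the difference between batches itself, the genotype by batch interaction, 0 members passed in DESeq2 or edgeR, and in DESeq2 0.0573% of 10472 genes did. The smallest unadjusted interaction p in DESeq2 was 0.1002, for *Cdk2* (0 members under 0.05).

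**Figure D3:**
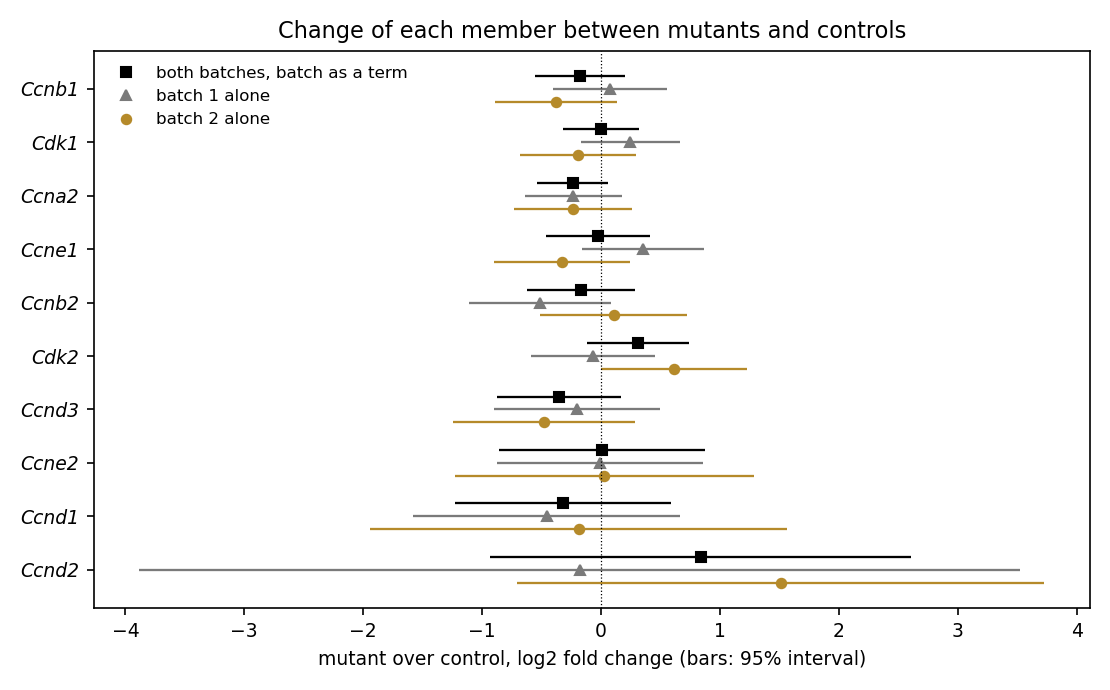
Log2 fold change of mutants over controls with 95% intervals for each member, fitted on both batches with batch as a term (black squares), on batch 1 alone (grey triangles) and on batch 2 alone (ochre circles). The black interval of every gene spans 0, for *Ccnd2* from -0.93 to 2.61, and the symbols of batch 1 and batch 2 lie on opposite sides of 0 for *Ccnb1*, *Cdk1*, *Ccne1*, *Ccnb2*, *Cdk2*, *Ccne2* and *Ccnd2*.

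Between the batches 1 member differed. *Ccnd3* was higher in batch 1, at 72.0, 47.5 and 55.3 TPM in its controls and 30.9 and 69.5 TPM in its mutants, against 26.8, 23.4 and 24.1 TPM in the controls and 25.0, 10.5 and 17.7 TPM in the mutants of batch 2. The batches did not overlap in TPM for *Ccnd3*. In normalised count they did not overlap for 13% of 10448 genes. *Ccnd3* was not among these, the highest embryo of batch 2, at 255, passing the lowest of batch 1, at 249. The log2 difference of batch 1 over batch 2 was 1.14 ± 0.27 (SE; DESeq2 adjusted p = 0.000247; edgeR adjusted p = 0.00502), and it was 0.87 to 1.29 when 1 embryo was left out. *Ccnd3* was the 1 member of 9 called in this comparison, which called 27.9% of genes in DESeq2 and 19.7% in edgeR. *Ccnd1* (1.08 ± 0.46, DESeq2 adjusted p = 0.0719), *Cdk2* (0.44 ± 0.22, adjusted p = 0.132) and *Ccna2* (0.33 ± 0.15, adjusted p = 0.107) were also higher in batch 1 by estimate but did not pass. *Ccna2* passed without mutant 1 (adjusted p = 0.0353) and *Ccnd1* without mutant 2 (adjusted p = 0.0496), giving 2 members each time. *Ccnb1*, *Ccnb2*, *Ccne1*, *Ccne2* and *Cdk1* had batch differences between -0.10 and 0.25. Markers of other kinds lay in different ranges in the batches. The 7 early embryo markers summed to 1295 to 1863 TPM in batch 1 and 918 to 1376 in batch 2, with overlap. Among them *Tfap2c*, a transcription factor of the trophoblast lineage, was at 75.4 to 131 TPM and 34.4 to 61.3 TPM, without overlap. Each of the other early embryo markers overlapped between the batches. The 5 oviduct markers summed to 0.29 to 1.02 TPM in batch 1 and 1.59 to 32.4 in batch 2. There *Ovgp1*, an oviduct glycoprotein, was at 1.45 to 30.1 TPM against 0 to 0.81 in batch 1. The other oviduct markers were each at most 2.32 TPM in any embryo and overlapped between the batches. The part of all these markers in the batch difference of *Ccnd3* was not tested.

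The spread of each member around the means of its genotype and batch was set against the 500 genes nearest to it in mean TPM. *Ccne1* had a residual SD of 0.40 on log2(TPM + 1), above 82.8% of its neighbours, *Ccnb1* one of 0.34, above 82.2%, and *Ccne2* one of 0.71, above 78.4%. *Cdk1* was the steadiest member on this scale at 0.26, above 64.0% of its neighbours, and *Ccna2* was alike at 0.26 and 58.6%. *Ccnd1*, at 0.53, was above only 29.2%. The other 4 members were above 57.4% to 66.8% of theirs. In normalised count, for *Ccnb1* and *Ccne1* the embryo farthest below the mean was mutant 3 and the one farthest above it control 2. In TPM the highest were control 5 for *Ccnb1* and mutant 5 for *Ccne1*. In mutant 3 the normalised counts of *Ccnb1* and *Ccne1* were 0.62 and 0.61 log2 units under their means (differences of -0.62 and -0.61), and in control 2 they were 0.42 and 0.53 units over them. Control 2 also had the lowest total count of the 11 libraries, and whether depth had a part in its values was not tested.

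**Figure D4:**
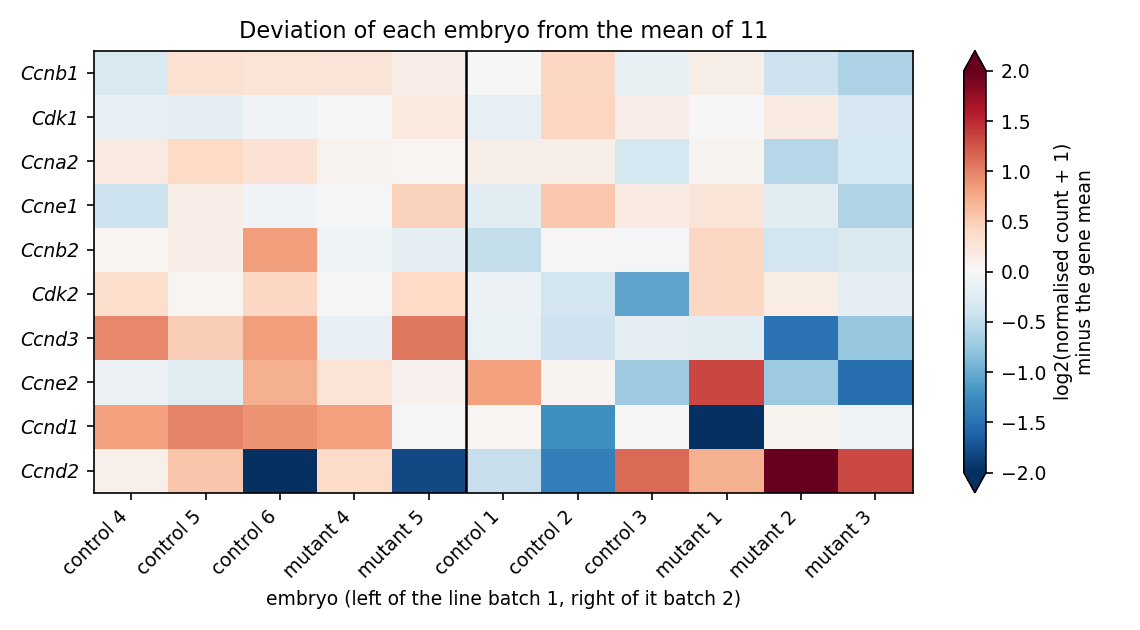
Log2(normalised count + 1) of each member in each embryo minus the gene mean, from blue (below the mean) to red (above it), with batch 1 to the left of the line and batch 2 to the right. *Ccnd3* is red in 4 of the 5 embryos of batch 1, and mutant 3 is blue for every member except *Ccnd2*, which deviates there by 1.31.

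*Ccnb1* and *Ccne1* had the most alike profiles among the members, with a root mean square difference of 0.21 on centred log2(TPM + 1) over 11 embryos, followed by *Ccna2* and *Ccnb1* at 0.24 and *Ccne1* and *Cdk1* at 0.26. Among 5716 genes with a mean above 10 TPM, the nearest profile to *Ccnb1* was that of *Nfyc* (0.09). It was followed by *Rab7* and *Rbbp8* (0.16 and 0.18), where the median gene was at 0.53. *Nfyc* was also nearest to *Ccne1* (0.17), before *Rbpms2* (0.17) and *Fbxo8* (0.18). *Cdk1* was nearest to *Pnpla8* (0.10), *Cdc42* (0.15) and *Cops6* (0.15). *Ccnd3* had no neighbour as close, the nearest being *Ecsit* at 0.27, then *Pigs* at 0.31 and *Pigq* at 0.32. The median gene was also farther from *Ccnd3*, at 0.80, than from *Ccne1* (0.54) or *Cdk1* (0.49). These are descriptions over the same 11 libraries, which share depth and batch with every gene.

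The posterior SD of the count, which is the uncertainty of RSEM's allocation of reads between genes, was 0 in all embryos for *Ccnb2*, *Ccne1*, *Cdk1* and *Cdk2*, and at most 13.0 reads for *Ccna2* and 12.3 for *Ccnb1*. As a share of the count in the same embryo it was at most 0.321% and 0.0820%. It reached 15.9% of the count for *Ccnd1* and 8.17% for *Ccnd2*. The processed pseudogene *Ccnb1-ps* was assigned 29.7 to 89.4 expected counts, or 0.232% to 0.503% of those of *Ccnb1*. *Ccnb2-ps* was assigned 0 to 21 expected counts, at most 3.87% of those of *Ccnb2*, and *Ccnd3-ps* at most 2.03, or 0.411% of those of *Ccnd3*. The effective length, which RSEM averages over the isoforms it detects, was 1457 bases in every embryo for *Ccnb2*, which has 1 annotated transcript, 893 to 957 bases in batch 1 and 807 to 874 in batch 2 for *Cdk1*, without overlap, and 1979 to 3666 bases for *Ccnd1*. It differed between mutants and controls for 0 of 9 members (exact permutation test, adjusted p = 0.924 for all, smallest unadjusted p = 0.229), *Ccnd2* being left out because 1 embryo had no count, and for 0 of 9 with labels exchanged within batches (exact permutation, smallest adjusted p = 0.765). A length set by 1 annotated transcript, as for *Ccnb2*, cannot show a change of isoform.

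The other genes of the cell cycle machinery were taken as 6 lists, to be read against the 1.45% of all genes called. Of 10 other cyclins and CDKs, 7 were tested, 1 was higher and 0 were lower in mutants. It was *Ccng1*, cyclin G1, a target of p53 that is not a driver of the cell cycle, at 9.26, 8.52, 6.63, 3.85, 4.43 and 5.52 TPM in controls 1 to 6 and 28.3, 9.32, 25.3, 24.9 and 15.7 TPM in mutants 1 to 5. All mutants were above all controls, mutant 2 by little. Its log2 fold change was 1.70 ± 0.30 (DESeq2 adjusted p = 8.6e-06; edgeR adjusted p = 0.0162), and it did not pass in limma on log2(TPM + 1) (adjusted p = 0.0966) or in batch 2 alone (1.37, adjusted p = 0.125). *Ccnb3*, cyclin B3, named here after its values were seen, had the most negative estimate of the list, -2.47 ± 0.81 (DESeq2 adjusted p = 0.0943; edgeR adjusted p = 0.393), from 0.17 to 3.57 TPM in controls and 0 to 0.97 TPM in mutants. *Cdk4*, the kinase of the D cyclins, was at 254 TPM and 0.08 ± 0.15, whereas its relative *Cdk6* was at 0.09 TPM, and *Ccna1*, the germ cell cyclin A, was listed at 0 in all embryos. *Cdk7*, of the kinase that activates CDKs, was at 115 TPM and -0.13 ± 0.21.

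In the other 5 lists 0 genes passed in either direction. Of 10 CDK inhibitors and pocket proteins, 5 were tested, with a median log2 fold change of -0.60. *Cdkn1a*, the inhibitor p21, was the most abundant at 233 TPM. Its controls were at 450, 236 and 155 TPM in batch 2 and 60.7, 90.1 and 81.6 TPM in batch 1, and its mutants at 659, 286 and 254 TPM in batch 2 and 99.9 and 188 TPM in batch 1. Within each genotype all embryos of batch 2 were above those of batch 1, and the fitted genotype change was 0.72 ± 0.30 (DESeq2 adjusted p = 0.278). *Cdkn2d*, the inhibitor p19 of CDK4, was at 13.5 TPM and -0.63 ± 0.29 (adjusted p = 0.354). Of the E2F and DP factors, 7 of 10 were tested with a median of -0.12, the most abundant being *Tfdp1*, a DP partner of E2F (47.7 TPM, -0.31 ± 0.19), and *E2f4* (25.1 TPM, 0.12 ± 0.26).

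Of 15 genes of the CDK1 switch and mitotic kinases, 14 were tested with a median of -0.22, 10 of them below 0. *Cks2*, the small subunit of CDK complexes, was at 1956 TPM, above *Ccnb1*, with -0.29 ± 0.18 (DESeq2 adjusted p = 0.562), and *Aurka*, a spindle kinase, at 400 TPM with 0.19 ± 0.21 (adjusted p = 0.812). Of 24 cyclin degradation genes, 22 were tested with a median of 0.02, 11 above and 11 below 0. *Ube2c*, the ubiquitin-conjugating enzyme of the anaphase-promoting complex, was at 1435 TPM with -0.29 ± 0.14 (adjusted p = 0.416), and its activator *Cdc20* at 835 TPM with 0.21 ± 0.18 (adjusted p = 0.714). All 8 checkpoint genes were tested with a median of 0.03, among them *Mad2l1* of the spindle checkpoint (127 TPM, -0.42 ± 0.22, adjusted p = 0.450) and the kinase gene *Chek2* (115 TPM, 0.09 ± 0.20, adjusted p = 0.933).

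**Figure D5:**
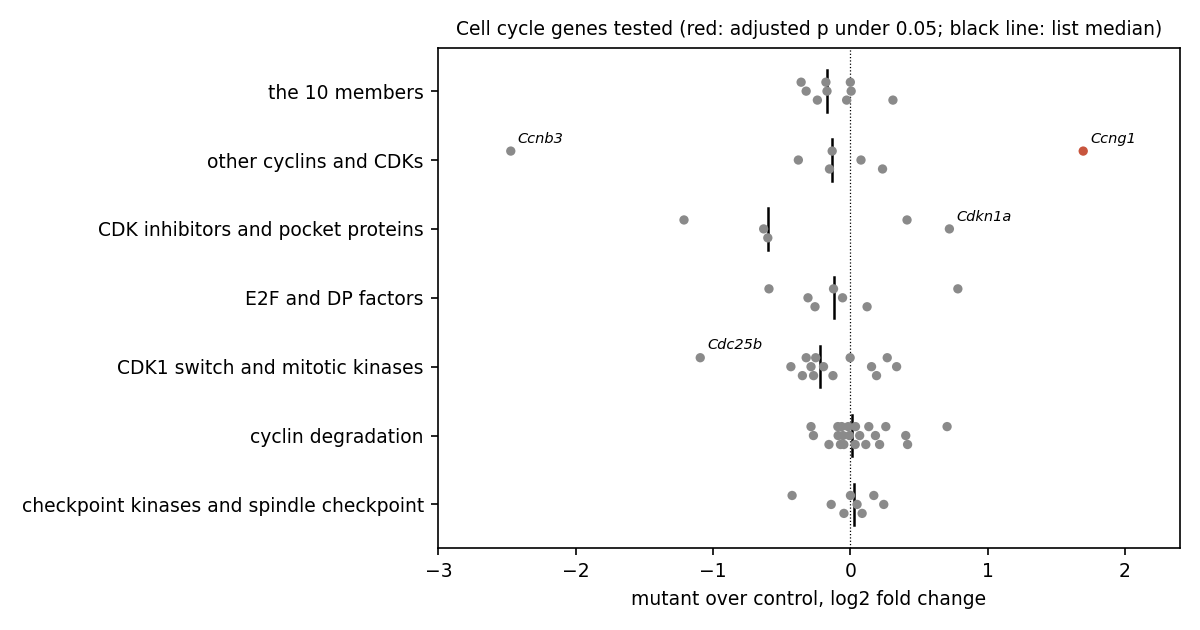
Log2 fold change of mutants over controls for each tested gene of the members and the 6 lists, with list medians as black lines and genes called by DESeq2 in red. *Ccng1*, at 1.70, is the single red point, and the members lie between -0.36 and 0.31.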

How the data were processed

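Single 8-cell embryos were profiled by Smart-seq2 with single-end sequencing. The authors mapped reads to GRCm38.p6 with STAR 2.6.0c and quantified genes with RSEM, and deposited for each embryo expected counts, TPM, effective lengths and posterior SDs of the count. Protocols name no molecular identifiers, so that reads copied by PCR cannot be told from reads of separate molecules. The SEs of the fits take in the spread among embryos as well as counting error. The deposited table of the authors' own comparison (mean, log2 fold change, its SE, p-values) was not used. Symbols came from GENCODE M21 (54079 of 54146 identifiers matched), sequences from RefSeq (GRCm38.p6).

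Expected counts were rounded and fitted with DESeq2 1.42.0 (Wald test, batch and genotype as terms, unshrunken, mean normalised count above 10, Benjamini-Hochberg adjusted p under 0.05 over all genes). This follows the authors' choice of DESeq2, and edgeR 4.0.16 quasi-likelihood (TMM) was given beside it. Intervals are normal 95% intervals of the log2 fold change. Levels and ratios used log2(TPM + 1) with exact permutation tests in Python 3.11.15. The fits were run on counts simulated from the DESeq2 model of these data, which checks the code and not whether that model holds. Alternatives were limma 3.58.1 on log2(TPM + 1), TMM factors, another count filter or none, no batch term, each batch alone, an effective-length offset, a pseudocount of 0.1, and leaving out each embryo.

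Embryos were separate animals, and groups came from the genotype labels. Replicate numbers follow the order of deposition. Members and lists were chosen with earlier results of these data known. Named genes were the members, list genes called, the 2 most abundant genes of each list, the 3 nearest profiles of the leading member of each class, and *Prdm10*. *Ccna1*, *Ccnb3*, *Cdc25b*, *Cdk6*, *Cdx2*, *Ovgp1* and *Tfap2c* were named after their values were seen.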

Additional observations from a re-analysis of the deposited data

Results flagged for a closer look

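Of 20 sets of values (10 members in 6 controls and in 5 mutants), 2 held an embryo far from the others by Dixon's criterion, which chance alone meets in about 1 of 20. Both were for *Ccnd2*, the rarest member. Control 4 had 1.45 TPM, with the next control at 0.45 and the lowest at 0. Mutant 2 had 4.01 TPM, with the next mutant at 1.36 and the lowest at 0.35. These levels rest on 8 and 43.1 expected counts, and *Ccnd2* was under the count minimum of the test. No member passed the test of a difference between the batches in its genotype effect.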

How the results depend on the processing

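No member was called between mutants and controls in any of the alternatives or with any embryo left out, and none in the interaction by either tool. Signs and sizes of the estimates were less stable. For genotype, *Ccne2* was at -0.043 and *Cdk1* at -0.024 in limma, and *Cdk1* at -0.014 with the effective-length offset. In batch 1 alone *Ccnb1* was at 0.079, *Ccnd2* at -0.18, *Ccne1* at 0.35, *Ccne2* at -0.010 and *Cdk2* at -0.069, and in batch 2 alone *Ccnb2* was at 0.11 and *Cdk1* at -0.20. With 1 embryo left out, *Ccne1* ranged from -0.19 to 0.11, *Ccne2* from -0.60 to 0.24 and *Cdk1* from -0.079 to 0.11. *Ccnb1* (-0.27 to -0.060), *Ccnb2* (-0.35 to -0.026), *Ccnd1* (-0.52 to -0.10), *Ccnd2* (0.44 to 1.26), *Ccnd3* (-0.63 to -0.21), *Ccna2* (-0.33 to -0.17) and *Cdk2* (0.16 to 0.45) kept their sign. For batch, *Ccne1* was at -0.0015 in edgeR and ranged from -0.14 to 0.15 with 1 embryo left out, and *Ccne2* from -0.19 to 0.49, and 1 to 2 members were called. For the paralog ratios, *Ccne1* to *Ccne2* differed by 0.014 with a pseudocount of 0.1. Leaving out 1 embryo gave -0.21 to 0.20 for this ratio, -0.11 to 0.10 for *Ccnb1* to *Ccnb2* and -0.58 to 0.090 for *Ccnd3* to *Ccnd1*, with 0 to 1 ratios past the threshold.

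List genes called numbered 0 in limma and 0 in batch 2 alone, and 1 to 2 with 1 embryo left out. The second gene was *Ccnb3* without control 3 or mutant 1, *Cdkn1a* without control 1 and *Cdc25b* without mutant 3. Over all genes, 151 were called, 51 without the batch term, 32 by edgeR, 22 by limma, 78 in batch 1 alone, 48 in batch 2 alone and 90 to 265 with 1 embryo left out. The cause of these shifts was not tested. Of 9 neighbouring pairs in the order of levels, 8 passed in controls alone and 8 to 9 with 1 embryo left out. *Ccnd2* was estimated at 2.10 with the effective-length offset and gave no value in limma or under the count filter. No paired analysis was possible because the labels carry no replicate numbers shared by the groups. The widest 95% intervals were those of *Ccnd2*, *Ccnd1* and *Ccne2*, which also had the lowest mean normalised counts of the members (9.60, 35.5 and 116), and the part of depth was not tested.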
